A study of Rattus norvegicus with 6 samples.

Results

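The genes described here are 34 genes of fatty acid oxidation and targets of the nuclear receptor PPAR-alpha, out of 18166 genes measured in the intestine of weaning rats. Among the 34 are 1 gene of ketone bodies (*Bdh1*) and 1 of valine breakdown (*Hibch*). They were chosen by name from the known parts of the pathway, from its transcriptional regulators to the enzymes of mitochondria and peroxisomes. The choice was made with earlier results of these data known, and all 34 were measured. RNA from the intestines of 6 male Sprague-Dawley pups, 3 with HFD-sitagliptin dams and 3 with HFD dams, was hybridised at weaning, at 3 weeks of age, to Affymetrix rat gene arrays, with 1 array per pup. All of these dams ate a high-fat diet (HFD) with 45% of its energy as fat, from 4 weeks before mating. The HFD-sitagliptin dams were also given sitagliptin at 10 mg/kg/day, an inhibitor of the peptidase DPP-4, through pregnancy and lactation. A male pup was taken at random from each litter, so the arrays stand for separate litters.

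Fatty acids enter mitochondria bound to carnitine and are shortened there by repeated rounds of beta-oxidation, while very long chains are first shortened in peroxisomes. PPAR-alpha, which is activated by fatty acids, drives transcription of many of these enzymes. In the suckling and weaning gut this programme is known to be prominent in the absorptive enterocytes of the small intestine, since milk is rich in fat.

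The arrays differed in genes that mark regions of the gut, and this is described before the results because it touches many of these genes. HFD-sitagliptin replicate 1 had a mean level of 5.92 over 15 of 20 listed brush border genes of the small intestine, against 9.52 to 10.65 on the other 5 arrays. Its mean over 11 of 15 listed colon and hindgut genes was 6.49, against 4.95 to 5.27. Of these 11 genes, 5 were highest and 0 lowest in this array, and 6 had a mean under the background level given below. *Car1*, 1 of them, stood at 12.41 there and at 3.41 to 4.04 on the other arrays. Sucrase-isomaltase (*Si*), an enzyme of the brush border, stood at 2.72 in HFD-sitagliptin replicate 1 and between 11.39 and 12.49 elsewhere. Its mean over 8 of 10 listed smooth muscle genes was 9.97, against 8.33 to 8.78, and over 10 adipocyte genes 6.35, within the 6.03 to 7.11 of the other arrays. Region genes also varied among the other arrays. Over 10 of 11 listed genes of the proximal small intestine the mean was 5.77, 6.50 and 8.63 in HFD-sitagliptin replicates 1 to 3 and 8.10, 7.71 and 8.19 in HFD replicates 1 to 3. HFD-sitagliptin replicates 1 and 2 were thus below all HFD arrays and replicate 3 above them, and 3 of these genes (*Lct*, *Slc2a2* and *Bco1*) were lower past the threshold defined below, against 0 without replicate 1. With all arrays *Si* differed by -3.64 (SE 2.35) and did not pass the threshold. Without HFD-sitagliptin replicate 1 it was lower past the threshold, at -0.66. In that fit 1 of 8 ileum genes (*Enpp7*, at -2.95) and 1 of the 11 colon and hindgut genes (*Car4*, at -1.79) were also lower. In these 2 lists 0 genes were higher, and the fit called 0.903% of all genes lower. *Enpp7* was lower past the threshold with all arrays too, at -3.64. The labels and methods do not name the gut segment. All values are the deposited log2 levels, and each comparison below is given with this array and, where it matters, without it. In these whole-tissue samples fewer cells of a type and less RNA per cell cannot be told apart.

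Of the 34 genes, 3 were lower and 1 was higher in HFD-sitagliptin pups past the threshold used, set at 1.5-fold or more and an unadjusted p under 0.05 in limma. *Cyp4a1*, *Acot1* and *Hibch*, the gene of valine breakdown, were the lower genes, and *Acadm* was the higher one. The same threshold called 1.30% of all genes lower and 0.705% higher, against 8.82% and 2.94% of the 34 genes. Since the genes were chosen with earlier results of these data known, these shares are a description only. After adjustment in limma 0 genes had a p under 0.05, the lowest adjusted p being 0.718, although 1040 genes had an unadjusted p under 0.05. The methods' t-test, run without moderation at the same threshold, called 3 of the genes lower and 0 higher, against 0.550% and 0.319% of all genes, and it also gave 0 genes an adjusted p under 0.05 and 774 an unadjusted one.

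The threshold gave the following when the doubted array or the replicate numbers were taken into account. Without HFD-sitagliptin replicate 1, *Creb3l3* joined the lower genes, which made 4 lower and 1 higher, against 0.903% and 0.732% of all genes. With the replicate number as a block, *Hsd17b4* and *Vnn1* joined the lower genes of the fit with all arrays. This made 5 lower and 1 higher, against 1.73% and 0.892% of all genes. Labels and methods state no pairing of the arrays, so the block rests on correlations in these same data. Genes that passed only with the block are thus given as a description and not as a result. The HFD and HFD-sitagliptin values did not overlap for 4 genes that were lower (*Creb3l3*, *Cyp4a1*, *Acot1* and *Hibch*) and for 1 that was higher (*Acadm*). Over all genes such separation was found for 5.54% in the lower and 5.97% in the higher direction.

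**Figure D1:**
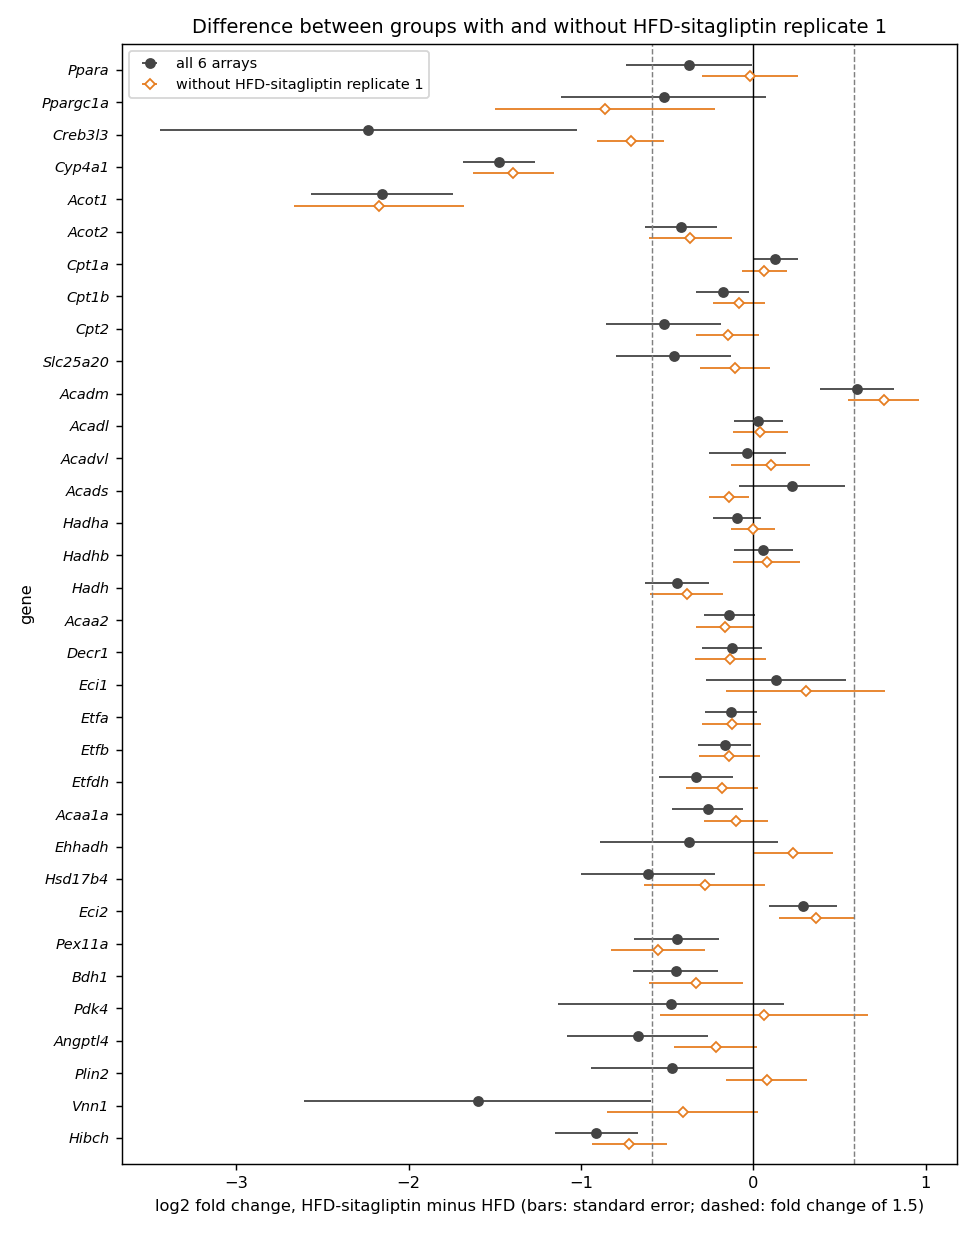
Difference between HFD-sitagliptin and HFD pups (x axis, log2 scale; bars, standard error) for the 34 genes, ordered by role, in the fit of all arrays and in the fit that leaves out HFD-sitagliptin replicate 1 (dashed lines, a 1.5-fold difference). *Cyp4a1*, *Acot1* and *Hibch* lie below 0 by 0.72 or more in both fits, and *Creb3l3* moves from -2.23 to -0.71 when the array is left out.

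The median difference of the 34 genes was -0.37 on the log2 scale, and 27 of them (79.4%) lay below 0. Over all genes the median was 0.01 and 48.1% lay below 0. Without HFD-sitagliptin replicate 1 the median of the 34 genes was -0.14, against -0.01 over all genes. In that fit 24 of the 34 (70.6%) lay below 0, against 51.4% of all genes. That array had the lowest value of all 6 in 18 of the 34 genes (52.9%), and in 22.1% of all genes. At the other end, HFD replicate 3 had the highest value in 15 of them (44.1%), and in 9.73% of all genes.

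**Figure D2:**
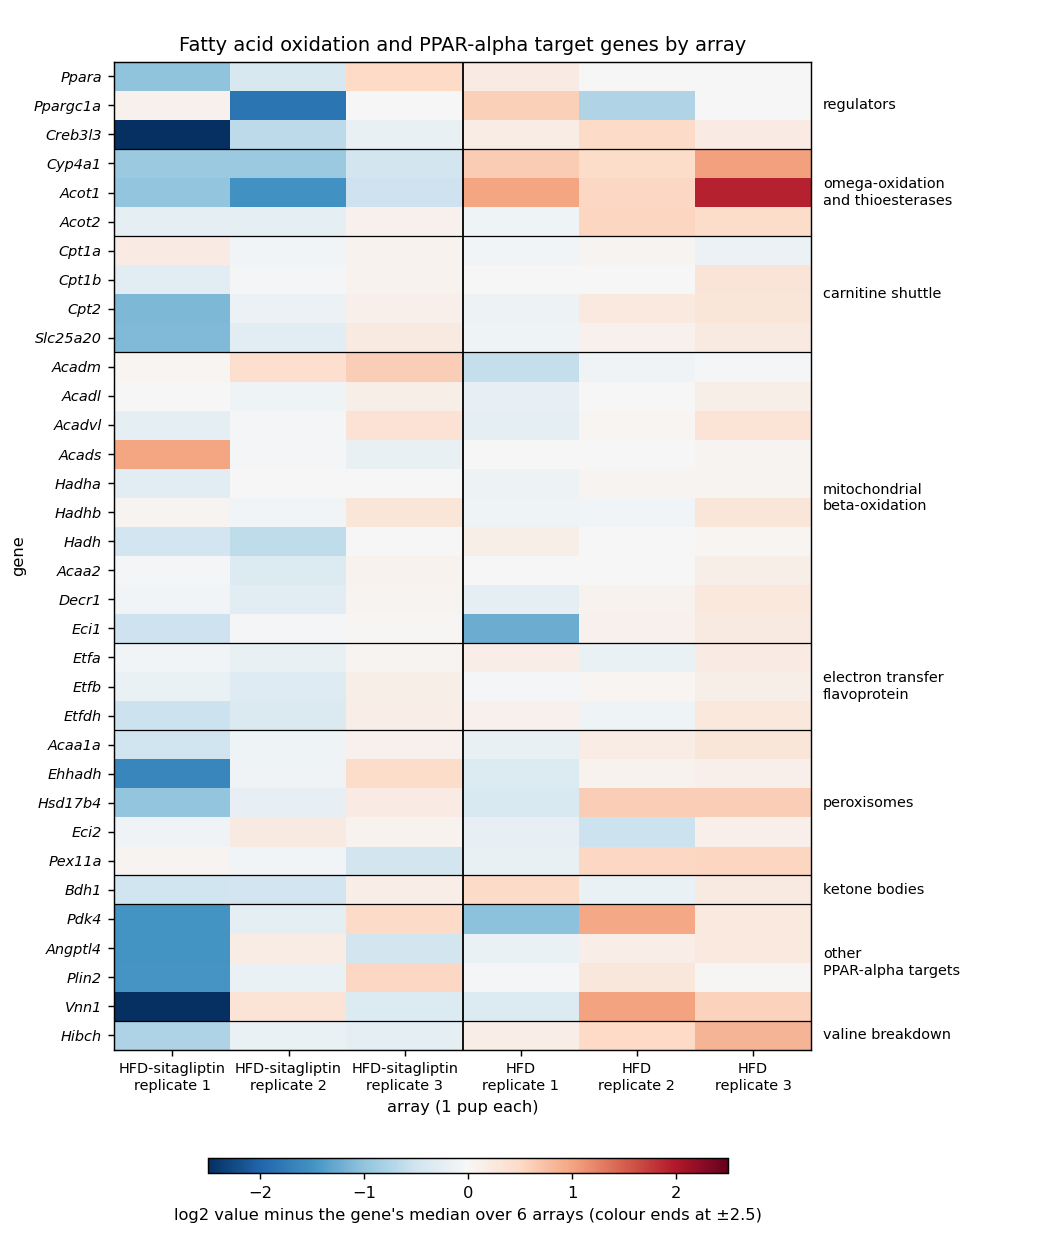
Log2 value of each of the 34 genes on each of the 6 arrays, drawn as colour for its difference from the gene's median over the arrays (the colour scale ends at ±2.5) and grouped by role. HFD-sitagliptin replicate 1 is the lowest array in 18 of the 34 genes, whereas *Hadha* and *Hadhb* stay pale on every array.

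The promoters of genes whose groups did not overlap are shown first, with that of *Acot2*, the neighbour and close relative of *Acot1*, for comparison. Each is a window of 300 bases, 250 before the annotated start and 50 from it on, taken from RefSeq on the rat assembly GRCr8 and written 5′ to 3′ on the gene's strand. Capitals mark AGGTCA, the core hexamer that nuclear receptors such as PPAR-alpha bind as a repeat. Windows were found for 28 of the 34 genes, the others being *Cyp4a1*, *Cpt1b*, *Acadl*, *Acaa2*, *Decr1* and *Vnn1*. The *Acot1* window lies at chr6:109367024-109367323 on the plus strand, that of *Acot2* at chr6:109342590-109342889 on the plus strand, and that of *Hibch* at chr9:56161747-56162046 on the minus strand. The *Acadm* window lies at chr2:245542815-245543114 on the minus strand and that of *Creb3l3* at chr7:9273070-9273369 on the plus strand.
Acot1: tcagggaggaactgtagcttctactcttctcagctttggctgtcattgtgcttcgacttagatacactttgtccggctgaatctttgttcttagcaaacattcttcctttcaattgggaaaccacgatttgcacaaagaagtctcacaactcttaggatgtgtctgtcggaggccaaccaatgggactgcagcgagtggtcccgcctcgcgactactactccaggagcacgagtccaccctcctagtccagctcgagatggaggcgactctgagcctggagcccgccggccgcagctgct
Acot2: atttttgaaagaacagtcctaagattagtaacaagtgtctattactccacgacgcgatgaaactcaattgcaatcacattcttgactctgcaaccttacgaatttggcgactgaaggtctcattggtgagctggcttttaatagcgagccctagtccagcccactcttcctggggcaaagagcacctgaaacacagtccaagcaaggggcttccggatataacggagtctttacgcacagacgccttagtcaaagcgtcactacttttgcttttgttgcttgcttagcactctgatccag
Hibch: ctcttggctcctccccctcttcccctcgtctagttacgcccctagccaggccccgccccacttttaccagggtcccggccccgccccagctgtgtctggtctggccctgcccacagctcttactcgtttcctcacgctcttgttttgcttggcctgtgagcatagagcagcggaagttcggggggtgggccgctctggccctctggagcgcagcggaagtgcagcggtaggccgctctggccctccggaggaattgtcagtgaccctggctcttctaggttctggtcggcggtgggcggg
Acadm: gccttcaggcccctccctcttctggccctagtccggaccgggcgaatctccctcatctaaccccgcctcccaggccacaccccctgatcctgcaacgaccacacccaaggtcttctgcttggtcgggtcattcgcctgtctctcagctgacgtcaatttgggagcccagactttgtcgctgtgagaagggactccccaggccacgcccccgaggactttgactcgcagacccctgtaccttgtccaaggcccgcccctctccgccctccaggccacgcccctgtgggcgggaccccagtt
Creb3l3: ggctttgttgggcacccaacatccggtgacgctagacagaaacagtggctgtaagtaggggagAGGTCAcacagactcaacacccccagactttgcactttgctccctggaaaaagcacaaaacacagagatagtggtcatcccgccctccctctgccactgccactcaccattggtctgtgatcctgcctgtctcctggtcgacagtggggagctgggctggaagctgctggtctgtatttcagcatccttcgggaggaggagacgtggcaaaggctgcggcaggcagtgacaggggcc

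Among these 5 windows, only that of *Creb3l3* held the hexamer on either strand, where it begins 187 bases before the start. Over all 28 matched genes it was found in 6, namely *Acadvl*, *Creb3l3*, *Eci1*, *Eci2*, *Hadhb* and *Hsd17b4*, and it occurs in 16.2% of 33469 windows of the same length. The direct repeat AGGTCANAGGTCA, in which N is any base, was found in 0 of the matched genes and in 0.0538% of all windows. With the fourth base of each hexamer free (AGGNCANAGGNCA), it was again found in 0 of them and in 0.415% of all windows. The repeat is rare over all windows, so its absence from these 28 genes carries little weight. A match is a description of these letters and not a binding site, and a window without one says nothing of the sequence outside it.

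Among the regulators, *Ppara* encodes PPAR-alpha itself. Its values were 6.16, 6.77 and 7.66 in HFD-sitagliptin replicates 1 to 3, and 7.38, 7.16 and 7.17 in HFD replicates 1 to 3. The HFD-sitagliptin values thus lay on both sides of the HFD values. The difference was -0.37 (SE 0.36, limma adjusted p = 0.765), and -0.02 (SE 0.28) without HFD-sitagliptin replicate 1. It passed the threshold only when HFD-sitagliptin replicate 3, the highest array, was left out, at -0.77.

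*Ppargc1a* encodes PGC-1alpha, a coactivator of PPAR-alpha that promotes mitochondrial oxidation. Its values were 7.27, 5.33 and 7.16 in HFD-sitagliptin pups and 7.76, 6.40 and 7.16 in HFD pups. The lowest array of each group was replicate 2, and the groups overlapped. These arrays were also those with high *Fabp6*, the bile acid binding protein of the ileum, at 13.16 and 12.62 against 3.61 to 7.36 on the others, and its part in the result was not tested. The difference of -0.52 (SE 0.59) became 0.11 when HFD-sitagliptin replicate 2 was left out.

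*Creb3l3* encodes CREB-H, a membrane-bound transcription factor of liver and small intestine that acts together with PPAR-alpha. Its values were 4.71, 9.04 and 9.51 in HFD-sitagliptin pups and 9.88, 10.18 and 9.89 in HFD pups. Every HFD-sitagliptin array was below every HFD array, but HFD-sitagliptin replicate 1 differed from the mean of the other 5 by -4.99. The difference was -2.23 (SE 1.21, limma adjusted p = 0.718) with all arrays. Without that array it was -0.71 (SE 0.19), which passed the threshold, as did *Si* in the same fit.

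Among the 3 genes of omega-oxidation and acyl-CoA hydrolysis, *Cyp4a1* and *Acot1* were lower in HFD-sitagliptin pups past the threshold and *Acot2* was not. *Cyp4a1* encodes a cytochrome P450 that hydroxylates the far end of fatty acids, and it is a classic PPAR-alpha target in rat liver. Its values were 3.87, 3.89 and 4.36 in HFD-sitagliptin pups and 5.44, 5.26 and 5.84 in HFD pups. All HFD-sitagliptin arrays were below all HFD arrays. The difference was -1.48 (SE 0.21), a 2.78-fold lower level, with a limma p of 0.000297 that ranked 1 of 18166 genes and an adjusted p of 0.718. It passed the threshold in each of the 6 fits that left out 1 array, at -1.63 to -1.31, and stood at -1.39 without HFD-sitagliptin replicate 1. HFD-sitagliptin replicate 3, which was below every HFD array here, had the highest mean of all arrays over the proximal genes. Over 8 of 9 listed ileum genes its mean was 7.47, against 8.34, 10.03 and 8.71 in HFD replicates 1 to 3. The part of the gut region in the *Cyp4a1* difference was not tested.

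*Acot1* encodes the cytosolic acyl-CoA thioesterase 1, which releases free fatty acids from long-chain acyl-CoA and is induced through PPAR-alpha. Its values were 3.88, 3.34 and 4.34 in HFD-sitagliptin pups and 5.85, 5.39 and 6.79 in HFD pups. The groups were again separate, and HFD replicate 3 was the highest array for *Acot1* as for *Cyp4a1*. The difference was -2.15 (SE 0.41), a 4.45-fold lower level, with a limma p of 0.00152 and an adjusted p of 0.718. Leaving out each array in turn gave -2.47 to -1.76, always past the threshold, and -2.17 without HFD-sitagliptin replicate 1.

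For both genes the HFD-sitagliptin arrays lay under 4.44, the level below which 95% of 1185 olfactory receptor genes were found. Since those receptor genes are largely silent in gut, values under this level may be background, and the fold change then understates the difference. Against this level itself, the HFD mean of *Cyp4a1* was 2.10-fold higher and that of *Acot1* 2.96-fold higher. The only other value of the 34 genes under this level was that of *Vnn1* in HFD-sitagliptin replicate 1.

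*Acot2* encodes the mitochondrial thioesterase that is closely related to the product of *Acot1*. Its values were 5.76, 5.76 and 6.08 in HFD-sitagliptin pups and 5.88, 6.53 and 6.44 in HFD pups, so that the groups overlapped at HFD replicate 1. The difference was -0.42 (SE 0.21, limma adjusted p = 0.718), and it passed the threshold only without that array, at -0.62. In the RefSeq annotation *Acot2*, *Acot1*, *Acot4*, *Acot3*, *Acot5* and *Acot6* lie in a cluster on chromosome 6. *Acot5* differed by -0.28 and *Acot6* by -0.40, neither past the threshold, and both had a mean under the background level. *Cyp4a1* likewise neighbours *Cyp4a3*, *Cyp4a2* and *Cyp4a8*, of which *Cyp4a8* differed by 0.15 at a level near background. Probes for *Acot3* with *Acot4*, and for *Cyp4a2* with *Cyp4a3*, carry several symbols and were not used here, and probes of such near-identical genes may take up RNA of their relatives.

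**Figure D3:**
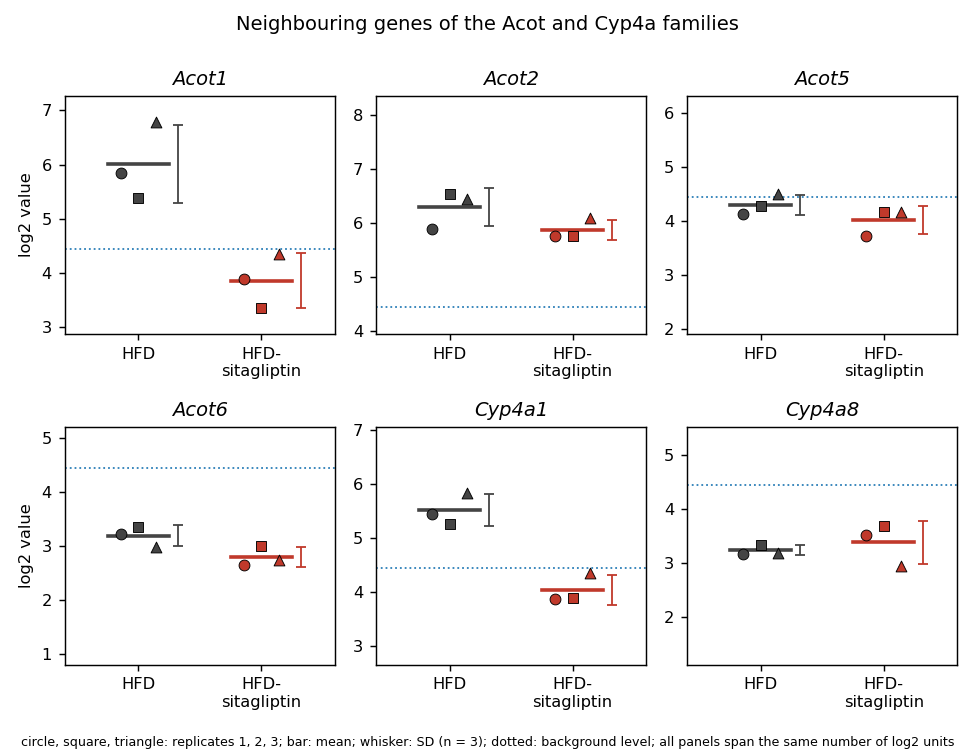
Log2 values of *Acot1* and *Cyp4a1* beside their measured neighbours in the same gene families, by group (circle, square and triangle, replicates 1, 2 and 3; bar, mean; whisker, SD, n = 3; dotted line, background level of 4.44; every panel spans the same number of log2 units). *Acot1* and *Cyp4a1* are separate between the groups, with all HFD-sitagliptin values under the dotted line, and *Acot2* overlaps.

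The carnitine shuttle carries long-chain fatty acids across the mitochondrial membranes. *Cpt1a*, whose product is the rate-limiting step, had values of 8.93, 8.66 and 8.81 in HFD-sitagliptin pups and 8.66, 8.78 and 8.57 in HFD pups. Its range over all 6 arrays was 0.363 and its difference 0.13 (SE 0.13). *Cpt1b*, the muscle form, differed by -0.18 (SE 0.15), and by -0.08 without HFD-sitagliptin replicate 1. Neither passed the threshold in any fit that left out 1 array.

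The inner membrane steps of the shuttle were lower in HFD-sitagliptin replicate 1. *Cpt2*, which rebuilds the acyl-CoA in the matrix, stood at 6.44, 7.42 and 7.69 in HFD-sitagliptin pups and 7.44, 7.80 and 7.87 in HFD pups. The difference was -0.52 (SE 0.33), and -0.15 (SE 0.18) without that array. *Slc25a20*, the carnitine-acylcarnitine carrier, had values of 7.06, 7.87 and 8.39 in HFD-sitagliptin pups and 8.05, 8.27 and 8.38 in HFD pups. Apart from replicate 1, the HFD-sitagliptin values of *Slc25a20* lay at or close to the HFD range, and its difference of -0.46 (SE 0.33) became -0.11 without replicate 1. It passed the threshold only without HFD-sitagliptin replicate 3, at -0.77.

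The first step of mitochondrial beta-oxidation is taken by acyl-CoA dehydrogenases that differ in the chain length they use. *Acadm*, the medium-chain enzyme, had values of 9.01, 9.37 and 9.57 in HFD-sitagliptin pups and 8.36, 8.88 and 8.91 in HFD pups. All HFD-sitagliptin arrays were above all HFD arrays, although HFD-sitagliptin replicate 1 lay only just above the highest HFD value. The difference was 0.60 (SE 0.22), a 1.52-fold higher level, with a limma p of 0.0291 and an adjusted p of 0.718. Without HFD-sitagliptin replicate 1 it was 0.76 (SE 0.21). It passed the threshold in 3 of the 6 fits that left out 1 array and fell under it without HFD-sitagliptin replicate 2 (0.58), HFD-sitagliptin replicate 3 (0.48) or HFD replicate 1 (0.43).

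The other dehydrogenases did not pass the threshold. *Acadl*, the long-chain enzyme, differed by 0.03 (SE 0.14), and *Acadvl*, the very-long-chain enzyme, by -0.03 (SE 0.22), which became 0.10 (SE 0.23) without HFD-sitagliptin replicate 1. *Acads*, the short-chain enzyme, stood at 7.78, 6.74 and 6.61 in HFD-sitagliptin pups and 6.79, 6.79 and 6.87 in HFD pups. *Acads* was thus highest in HFD-sitagliptin replicate 1, 1.02 above the mean of the other 5 arrays, the only one of the 34 genes more than 1 log2 unit higher there. Its difference of 0.23 (SE 0.31) became -0.14 (SE 0.12) without that array.

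The trifunctional protein carries out the next steps for long chains, and its subunits are encoded by *Hadha* and *Hadhb*, whose promoter windows share 200 bases on opposite strands. *Hadha* had values of 10.17, 10.46 and 10.44 in HFD-sitagliptin pups and 10.31, 10.52 and 10.53 in HFD pups. *Hadhb* had values of 9.19, 9.06 and 9.44 in HFD-sitagliptin pups and 9.01, 9.07 and 9.43 in HFD pups. Both varied little, with ranges over all arrays of 0.352 and 0.421, and differed by -0.09 (SE 0.14) and 0.06 (SE 0.17).

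*Hadh* encodes the short-chain 3-hydroxyacyl-CoA dehydrogenase. Its values were 10.36, 10.20 and 10.84 in HFD-sitagliptin pups and 10.99, 10.84 and 10.89 in HFD pups. HFD-sitagliptin replicates 1 and 2 lay below the HFD values and replicate 3 lay at their lower edge. The difference was -0.44 (SE 0.19, limma adjusted p = 0.718), and it passed the threshold only without HFD-sitagliptin replicate 3, at -0.63.

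The remaining mitochondrial enzymes did not pass the threshold. *Acaa2*, the thiolase, differed by -0.14 (SE 0.15), and *Decr1*, which prepares unsaturated chains, by -0.12 (SE 0.18). *Eci1*, an isomerase for unsaturated chains, differed by 0.13 (SE 0.41), with HFD replicate 1 at 6.20 and the other 5 arrays at 6.93 to 7.66. The electron transfer flavoprotein passes electrons from the dehydrogenases to the respiratory chain, and its genes *Etfa*, *Etfb* and *Etfdh* differed by -0.13, -0.17 and -0.33, with standard errors of 0.15, 0.16 and 0.22. *Etfdh* differed by -0.18 (SE 0.21) and *Eci1* by 0.30 (SE 0.46) once HFD-sitagliptin replicate 1 was left out. None of these 6 genes passed the threshold in any fit that left out 1 array.

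Over the 10 mitochondrial beta-oxidation genes the median difference was 0.00, and 0.02 without HFD-sitagliptin replicate 1. Their median range over all 6 arrays was 0.577, with single genes between 0.350 and 1.46. The median range was 0.652 over all genes tested, 2.43 over the 3 regulators and 2.22 over the 4 other PPAR-alpha targets. Of the 34 genes, 10 had a range under the median of all genes.

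Peroxisomes shorten very long and branched chains, and their beta-oxidation enzymes are strongly induced by PPAR-alpha in rodent liver. *Ehhadh*, the peroxisomal bifunctional enzyme, had values of 6.90, 8.45 and 8.99 in HFD-sitagliptin pups and 8.19, 8.62 and 8.66 in HFD pups. Only HFD-sitagliptin replicate 1 lay below the HFD values and replicate 3 lay above them. The difference was -0.38 (SE 0.52) and turned to 0.23 (SE 0.23) without replicate 1, neither past the threshold.

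*Hsd17b4*, the second bifunctional enzyme of peroxisomes, had values of 8.39, 9.16 and 9.58 in HFD-sitagliptin pups and 9.0, 9.99 and 9.98 in HFD pups. In each replicate number the HFD-sitagliptin value was the lower one, and replicate 1 was the lowest array of both groups. The difference was -0.61 (SE 0.39, limma adjusted p = 0.718), which did not pass the threshold. It passed with the replicate block, for which no pairing is stated. Without HFD-sitagliptin replicate 1 it was -0.28 (SE 0.35). It also passed the threshold without HFD replicate 1, at -0.94.

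*Pex11a* encodes a membrane protein that promotes the division of peroxisomes. Its values were 6.38, 6.25 and 5.86 in HFD-sitagliptin pups and 6.13, 6.83 and 6.86 in HFD pups. Only HFD replicate 1 of the HFD arrays lay within the HFD-sitagliptin range. The difference was -0.44 (SE 0.25), and it passed the threshold only without HFD replicate 1, at -0.68. *Acaa1a*, the peroxisomal thiolase, differed by -0.27 (SE 0.21), or -0.10 (SE 0.19) without HFD-sitagliptin replicate 1, and *Eci2*, an isomerase of unsaturated chains, by 0.29 (SE 0.20), neither past the threshold.

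*Bdh1* encodes the mitochondrial enzyme that interconverts the main ketone bodies. Its values were 7.41, 7.44 and 8.07 in HFD-sitagliptin pups and 8.39, 7.75 and 8.14 in HFD pups. HFD-sitagliptin replicates 1 and 2 were the lowest arrays, and replicate 3 lay among the HFD values. The difference was -0.45 (SE 0.25), past the threshold only without HFD-sitagliptin replicate 3, at -0.67.

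*Hibch* encodes the mitochondrial hydrolase of 3-hydroxyisobutyryl-CoA in valine breakdown, a route that runs beside beta-oxidation. Its values were 6.57, 7.18 and 7.10 in HFD-sitagliptin pups and 7.52, 7.85 and 8.20 in HFD pups. All HFD-sitagliptin arrays were below all HFD arrays, and replicate 1 was the lowest array of both groups. The difference was -0.91 (SE 0.24), a 1.88-fold lower level, with a limma p of 0.00768 and an adjusted p of 0.718. It passed the threshold in all 6 fits that left out 1 array, at -1.08 to -0.72, the latter without HFD-sitagliptin replicate 1.

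**Figure D4:**
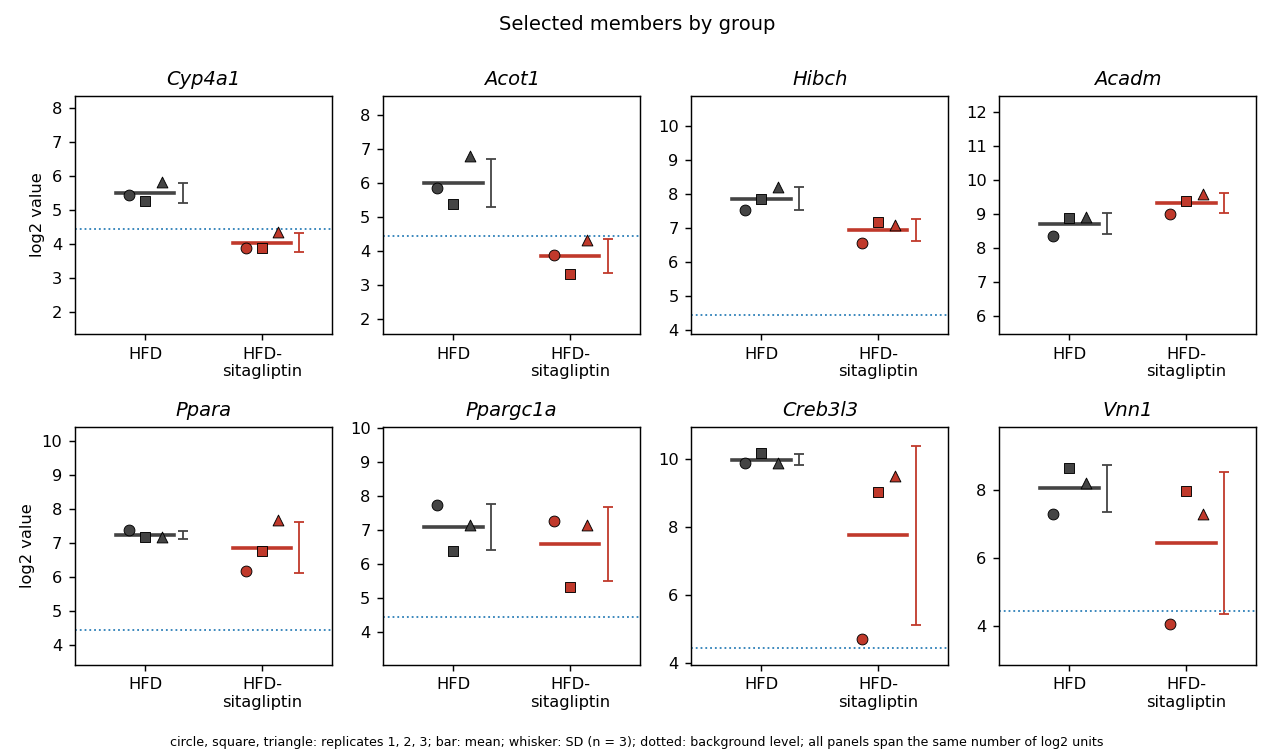
Log2 values by group for 8 of the genes (circle, square and triangle, replicates 1, 2 and 3; bar, mean; whisker, SD, n = 3; dotted line, background level of 4.44; every panel spans the same number of log2 units). *Cyp4a1*, *Acot1* and *Hibch* are lower and *Acadm* is higher in all HFD-sitagliptin arrays, while in *Creb3l3* and *Vnn1* HFD-sitagliptin replicate 1 lies far below the other arrays.

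The other PPAR-alpha targets varied most with HFD-sitagliptin replicate 1. *Vnn1* encodes pantetheinase, an enzyme of the brush border that releases pantothenic acid, the precursor of coenzyme A. Its values were 4.07, 7.98 and 7.30 in HFD-sitagliptin pups and 7.29, 8.65 and 8.21 in HFD pups. The first of these differed from the mean of the other 5 arrays by -3.81. The difference was -1.60 (SE 1.0, limma adjusted p = 0.718), which did not pass the threshold. It passed with the replicate block, for which no pairing is stated. Without replicate 1 of HFD-sitagliptin it was -0.41 (SE 0.44).

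*Angptl4* encodes a secreted inhibitor of lipoprotein lipase. Its values were 5.11, 6.79 and 6.14 in HFD-sitagliptin pups and 6.45, 6.77 and 6.84 in HFD pups. HFD-sitagliptin replicate 1 was the lowest, and replicate 2 lay within the HFD values. The difference was -0.67 (SE 0.41), and -0.22 (SE 0.24) without replicate 1. It passed the threshold only without HFD-sitagliptin replicate 2, at -1.06.

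*Plin2* encodes a coat protein of lipid droplets, and stood at 7.44, 8.74 and 9.42 in HFD-sitagliptin pups and 8.87, 9.19 and 8.94 in HFD pups. *Pdk4*, a kinase that shuts pyruvate out of oxidation, stood at 7.55, 8.80 and 9.53 in HFD-sitagliptin pups and 8.01, 10.01 and 9.28 in HFD pups. In both genes HFD-sitagliptin replicate 1 was the lowest array and the groups overlapped. Their differences were -0.47 (SE 0.47) and -0.48 (SE 0.65), and without that array 0.08 (SE 0.23) and 0.06 (SE 0.60).

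In total, HFD-sitagliptin replicate 1 lay more than 1 log2 unit below the mean of the other 5 arrays in 13 of the 34 genes (38.2%), and in 3.90% of all genes. The median difference of the 4 other PPAR-alpha targets was -0.57 with it and -0.08 without it. For the 4 genes of the carnitine shuttle the median was -0.32 with it and -0.09 without it. In the 3 genes of omega-oxidation and hydrolysis it was -1.48 and -1.39. The fat absorption and chylomicron genes, another programme of enterocytes, gave a median of -1.13 over 14 genes and of -0.23 without that array, with 0 genes past the threshold either way. With the replicate block, for which no pairing is stated, *Apoa4* and *Dgat2* of these 14 genes were lower past the threshold. That fit called 1.73% of all genes lower. The part of the gut region was not tested, either in these differences or in those of *Cyp4a1*, *Acot1*, *Hibch* and *Acadm*, since region genes still differed between the arrays without HFD-sitagliptin replicate 1.

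A further 157 genes of the same pathways were measured, of 183 listed. Of these 1 was higher and 5 were lower past the threshold, which called 0.705% of all genes higher and 1.30% lower, and their median difference was -0.05. Without HFD-sitagliptin replicate 1, 1 was higher and 2 were lower, in a fit that called 0.732% of all genes higher and 0.903% lower. Among 27 other peroxisomal genes 3 were lower and 0 higher, at a median of -0.15. The replicate block, for which no pairing is stated, added *Hacl1*, a lyase of alpha-oxidation, at -0.60. That fit called 1.73% of all genes lower. *Pex3*, needed to build the peroxisomal membrane, had values of 6.33, 6.14 and 6.35 in HFD-sitagliptin pups and 7.03, 6.79 and 6.82 in HFD pups. These groups were separate, with a difference of -0.61 (SE 0.13, limma adjusted p = 0.718), and -0.64 without HFD-sitagliptin replicate 1. *Pex3* passed the threshold in 4 of the 6 fits that left out 1 array, by the methods' t-test and with the replicate block.

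The other lower peroxisomal genes were *Phyh* and *Cat*. *Phyh* encodes the hydroxylase that starts alpha-oxidation of branched chains, with values of 8.27, 8.67 and 9.58 in HFD-sitagliptin pups and 10.08, 9.72 and 9.87 in HFD pups. *Cat*, which encodes catalase, stood at 9.65, 10.05 and 10.33 in HFD-sitagliptin pups and 10.51, 10.92 and 10.47 in HFD pups. Both were separate between the groups, with HFD-sitagliptin replicate 1 the lowest array. They differed by -1.05 (SE 0.33) and -0.62 (SE 0.22). Without that array *Phyh* still passed the threshold, at -0.77, and *Cat* did not, at -0.44. *Phyh* passed in 4 and *Cat* in 3 of the 6 fits that left out 1 array. Both passed with the replicate block, and neither passed the methods' t-test.

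Outside peroxisomes, *Med1*, a Mediator subunit that binds nuclear receptors, was lower by 0.59 among 17 transcriptional partners. *Aldh3a2*, a fatty aldehyde dehydrogenase, was lower by 0.69 and *Adh7*, an alcohol dehydrogenase, was higher by 0.71 among 12 omega-oxidation genes, *Adh7* with a mean under the background level. *Med1* and *Aldh3a2* did not pass without HFD-sitagliptin replicate 1 or by the methods' t-test. They passed in 2 and 1 of the 6 fits that left out 1 array, and *Med1* did not pass with the replicate block either. *Adh7* passed in 3 of the 6 fits that left out 1 array, at 0.43 to 0.88 over all of them, and did not pass the methods' t-test. No gene passed among 15 of fatty acid uptake and activation, 11 other thioesterases, 17 other mitochondrial beta-oxidation genes, 9 of ketone bodies, 16 of branched-chain breakdown, or 33 of lipid droplets and other targets. The smallest p of their lists belonged to *Acsl1* (-0.56, SE 0.24), *Acot8* (-0.38, SE 0.15), *Echdc2* (0.33, SE 0.13), *Acat2* (-0.57, SE 0.21) and *Bckdha* (0.31, SE 0.22). In the last of these lists it belonged to *Pdk2*, a kinase of the pyruvate dehydrogenase complex, at -0.58 (SE 0.15), just under the fold threshold.

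Lists outside fatty acid oxidation served for comparison. Of 66 respiratory chain subunits, to which beta-oxidation passes its electrons, 1 (*Atp5pd*, named after its value was seen) was higher and 0 were lower past the threshold, with a median of -0.03. Of 22 genes of fatty acid and cholesterol synthesis, 0 passed in either direction, with a median of -0.09. Without HFD-sitagliptin replicate 1 these medians were -0.07 and -0.13.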

How the data were processed

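Total RNA from the intestines of 6 male pups was hybridised to Affymetrix GeneChip Rat Gene 2.0 ST arrays. Scans were normalized by the authors in GeneSpring, who deposited log2 values for 36685 transcript clusters. The algorithm is not given in the sources used here, and the log2 scale was inferred from the range of the values. The methods name TRIzol for RNA isolation, whereas the labels name a mirVana kit.

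The 18511 clusters to which the platform annotation gives a lone gene symbol were kept. For 291 genes with several clusters the one with the highest mean was taken, which left 18166 genes. The groups were set against each other with limma 3.58.1 in R 4.3.3, with no covariate and no filter on low values, and p-values were adjusted by Benjamini-Hochberg over all genes. The background level was set from olfactory receptor genes. Arrays have no read depth, and their number limits the precision.

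The genes and lists were chosen with earlier results of these data known. Values are given in full for the regulators and for genes past the threshold in any fit with all arrays, with the replicate block or with 1 array left out, which made 15 genes, and those shown beside them were chosen after their values were seen. Other pathway genes are named where they pass the threshold or are among the 2 with the smallest p of their list. *Acot5* and *Cyp4a8* are named as neighbours of *Acot1* and *Cyp4a1*, and other named genes outside this rule were chosen after their values were seen. Same-numbered arrays of the groups had deviations from the group means that correlated at 0.146, 0.284 and 0.148 across genes, against -0.24 to 0.0201 for other pairs. Labels and methods state no pairing, so it rests on these values alone, and the replicate number was used as a block in an alternative fit. Other alternatives were the methods' t-test, robust moderation with a trend, quantile normalization, array weights, median centring, leaving out arrays, dropping dim genes, averaging clusters and other thresholds. The fit of other pathway genes without HFD-sitagliptin replicate 1 was added after seeing the data.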

Additional observations from a re-analysis of the deposited data

How the results depend on the processing

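The count of lower genes among the 34 was 3 in the comparison as reported, 5 with the replicate block and 0 at an adjusted p under 0.05. It ranged from 3 to 8 when 1 array was left out. The 8 came from the fit without HFD-sitagliptin replicate 3, which called 544 of all genes lower, against 237 with all arrays. The count of higher genes, which was 1 (*Acadm*), became 0 under the methods' t-test, with arrays centred on their medians, at a fold change of at least 2, at an adjusted p under 0.05 and without replicate 2 of both groups, and ranged from 0 to 1 when 1 array was left out. Over all genes 365 passed the threshold. This count was 158 by the methods' t-test, 476 with the replicate block, 1040 with no fold threshold, 57 at a fold change of at least 2 and 0 at an adjusted p under 0.05. It ranged from 239 (without HFD replicate 1) to 880 (without HFD-sitagliptin replicate 3). Centring turned the split of 128 higher and 237 lower into 81 and 390. The other pathway genes past the threshold went from 6 to 3, and the median of the 34 genes from -0.37 to -0.14, without HFD-sitagliptin replicate 1, with a range of -0.53 to -0.14 when 1 array was left out. Of 225 alternative fits of the genes given in full, 206 kept their direction and their side of the threshold, 12 came to pass it, 6 no longer passed it and 1 changed direction, *Ppargc1a* at 0.11 without HFD-sitagliptin replicate 2, in a range of -0.87 to 0.11 when 1 array was left out. Beside the calls of *Hsd17b4* and *Vnn1*, the replicate block changed no call among the genes given in full. The cause of these changes was not tested. With 3 arrays in each group, small differences could not be resolved.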

Other observations

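Of 16 genes of valine and branched-chain amino acid breakdown, 9 had their highest value in HFD-sitagliptin replicate 1, as *Acads* did, and 0 had their lowest value there. Over all 18166 genes, 4820 were highest in that array and 4014 lowest. *Bcat2*, the mitochondrial transaminase that takes the amino group from leucine, isoleucine and valine, stood at 7.12 there and at 5.89 to 6.07 on the other 5 arrays. *Bckdha*, a subunit of the dehydrogenase that acts next, stood at 6.21 there and at 5.35 to 5.49 on the others. *Hibch*, which acts later in the valine branch, was lowest in that array, at 6.57. Neither *Bcat2* nor *Bckdha* passed the threshold between the groups, with differences of 0.42 (SE 0.32) and 0.31 (SE 0.22), and of 0.04 and 0.07 without that array. These genes were picked after their values were seen.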
